A study of Rattus norvegicus with 8 samples.

Results

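Axon guidance ligands and receptors were followed as a group of 69 genes among the 21239 gene symbols of a rat expression array. They were chosen by name: the genes Slit1 to Slit3 and Robo1 to Robo4, Ntn1, Ntn4, Dcc, Nrp1, Nrp2, and every symbol that starts with Sema, Plxn, Unc5, Epha, Ephb, Efna or Efnb. The rule uses names and no measured value, though the members were chosen with earlier results of these data known. The table held 71 rows for these genes, since Ntn4 and Sema4d have a pair of rows each, and the row with the higher mean over the 8 arrays was used. By family there were 7 Slit and Robo genes, 9 of the netrin, Dcc and Unc5 group, 20 semaphorins, 11 plexins and neuropilins, 8 ephrins and 14 Eph receptors. The prefix also took in Unc50 and Unc5cl, which are not netrin receptors, and Plxna4 appears under its older name Plxna4a. The row of Plxnb2 also lists the microRNA gene Mir349.

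The animals were drug-naive, young adult, male Sprague-Dawley rats of the first generation. In 4 of them, called nicotine-sired, the father had taken nicotine by intravenous self-administration at 0.03 mg/kg for 60 days. In the other 4, called saline-sired, the father was a yoked saline control. RNA came from cryostat punches of the dorsal hippocampus of both sides, and each array stands for a different father and litter, so the replicates are biological. The sons themselves received no drug, and a punch mixes all cell types of the region.

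Axon guidance molecules steer growing axons and stay expressed in the adult brain, where several of them act at synapses. Slits repel axons through Robo receptors. Netrins attract through Dcc and repel through Unc5 receptors. Semaphorins signal through plexins, and most of the secreted class 3 members need a neuropilin as co-receptor. Ephrins and Eph receptors sit on touching cells and signal in both directions, with ephrin-A ligands anchored by a lipid and ephrin-B ligands spanning the membrane. In the hippocampus these systems are known for layering the inputs of the dentate gyrus, CA3 and CA1 and for shaping dendritic spines.

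The deposited values are log2 signals, in which 1 unit is a doubling. A row was tested when its mean over the 8 arrays was above 6.30, the median of all gene rows, which left 15161 rows. The array medians ran from 6.25 to 6.35. All neuron markers of a fixed list were above the filter, and that list's mean score, centred over the 8 arrays, ran from -0.09 to 0.02 in nicotine-sired and from 0.01 to 0.03 in saline-sired arrays. Of the guidance genes 61 were above the filter. Among all 69 the highest signals were those of Epha4 (11.76), Epha7, Epha6, Sema7a and Epha5, and the lowest those of Epha1 (4.85), Unc5cl, Sema3a, Efna4 and Epha10. The 23 antigenomic control rows, whose sequences match no rat gene, had medians of 4.32 to 4.53 per array, and the brightest of them read 7.96 to 8.37. Of the 61 genes, 31 lay above that brightest control on every array, 22 lay below it on all 4 arrays of at least 1 group and 13 of these on all 8. Sizes of difference are least certain for those 22. Signals of different rows depend on their probes and do not rank transcripts by abundance.

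A pair of arrays stood apart by cell type markers. The score of 9 CA1 pyramidal cell markers ran from -0.06 to 1.82 in nicotine-sired and from -1.63 to -0.06 in saline-sired arrays, with 9 of 9 markers higher, and nicotine-sired 1 stood at the top. Of the dentate granule cell markers, 5 of 5 above the filter were lower in nicotine-sired sons, with scores from -1.58 to 0.07 against 0.04 to 0.81 in saline-sired arrays. Nicotine-sired 1 was the lowest, at -1.58, and it was also the lowest for CA2 and CA3 markers, at -1.32, where the other arrays stood between -0.10 and 0.66. Nicotine-sired 4 stood apart by its choroid plexus score of 3.66 and its striatal score of 2.32, where no other array exceeded 0.87 and -0.06. In punches, fewer cells of a type and less RNA per cell cannot be told apart.

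Punches from sons of nicotine-taking fathers had higher signals of the semaphorin Sema6a and the ephrin Efnb2. Signals of the netrin receptor Dcc and of the semaphorins Sema5a and Sema3c were lower. These 5 of the 61 guidance genes above the filter passed an adjusted p of 0.05 (limma with Benjamini-Hochberg adjustment over all 15161 rows), which is 8.2%, where 2.06% of all tested rows passed. By direction 2 rose and 3 fell, against 1.18% and 0.884% of all tested rows. At an unadjusted p under 0.05 there were 35 of the 61 (57.4%, against 24.0% of all tested rows), and at one under 0.01 there were 18 (29.5%, against 9.58%). The median difference over the 61 was 0.03, with 32 positive and 29 negative, and over all tested rows it was 0.02. The median size of the difference, whatever its sign, was 0.27 among the 61 and 0.12 among all tested rows. In 22 of the 61 genes the groups of 4 arrays did not overlap, or 36.1%, against 14.3% of all tested rows. Of these, 9 lay higher and 13 lower, where 8.19% and 6.15% of all tested rows did.

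Sema6a encodes a transmembrane semaphorin that binds plexin-A2 and plexin-A4. It read 9.72, 9.40, 9.59 and 9.57 on nicotine-sired arrays 1 to 4, and 9.06, 9.10, 9.08 and 9.08 on saline-sired arrays 1 to 4. The saline-sired arrays lay almost on one level and every nicotine-sired array was above them. Sema6a rose by 0.49 ± 0.07 log2 units (SE, n = 4 per group, limma adjusted p = 0.0251).

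Efnb2 encodes ephrin-B2, a transmembrane ligand of EphB receptors and EphA4 that is also a marker of arterial endothelium. Its signals were 9.21, 8.22, 8.61 and 8.91 in nicotine-sired and 7.64, 7.65, 7.55 and 8.16 in saline-sired arrays. The groups came close at nicotine-sired 2 and saline-sired 4 without overlapping. All 4 saline-sired values lay below the brightest antigenomic control of their array and all 4 nicotine-sired values above it, so the size of the rise is uncertain. In log2 units it was 0.99 ± 0.21 (adjusted p = 0.0468 in limma). A list of 5 endothelial and pericyte markers was higher in 5 of 5, with scores from 0.08 to 0.19 in nicotine-sired and from -0.22 to 0.03 in saline-sired arrays. With that score as a covariate Efnb2 differed by 0.72 ± 0.42. The groups did not overlap in that score, so score and sire treatment cannot be told apart in this fit.

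Dcc encodes the receptor through which netrin-1 attracts axons. It read 9.44, 9.79, 9.52 and 9.66 in nicotine-sired and 10.09, 10.11, 10.04 and 9.92 in saline-sired arrays. All nicotine-sired values lay below all saline-sired ones. Dcc fell by 0.44 ± 0.08 (adjusted p = 0.0394 in limma).

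Sema5a encodes a transmembrane semaphorin with thrombospondin repeats. Its signals were 9.77, 10.36, 10.42 and 10.55 in nicotine-sired and 11.32, 10.87, 11.16 and 10.96 in saline-sired arrays. Nicotine-sired 1 was the lowest of all by a wide step. Sema5a fell by 0.81 ± 0.16, or 1.75-fold (adjusted p = 0.0430 in limma), and without nicotine-sired 1 it fell by 0.64 (adjusted p = 0.0467). Sema3c, a secreted semaphorin that acts through neuropilins, read 9.68, 9.74, 9.86 and 9.48 in nicotine-sired and 10.19, 9.97, 10.38 and 10.33 in saline-sired arrays. Here nicotine-sired 4, not 1, was the lowest. Sema3c fell by 0.53 ± 0.11 (adjusted p = 0.0445 in limma).

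**Figure D1:**
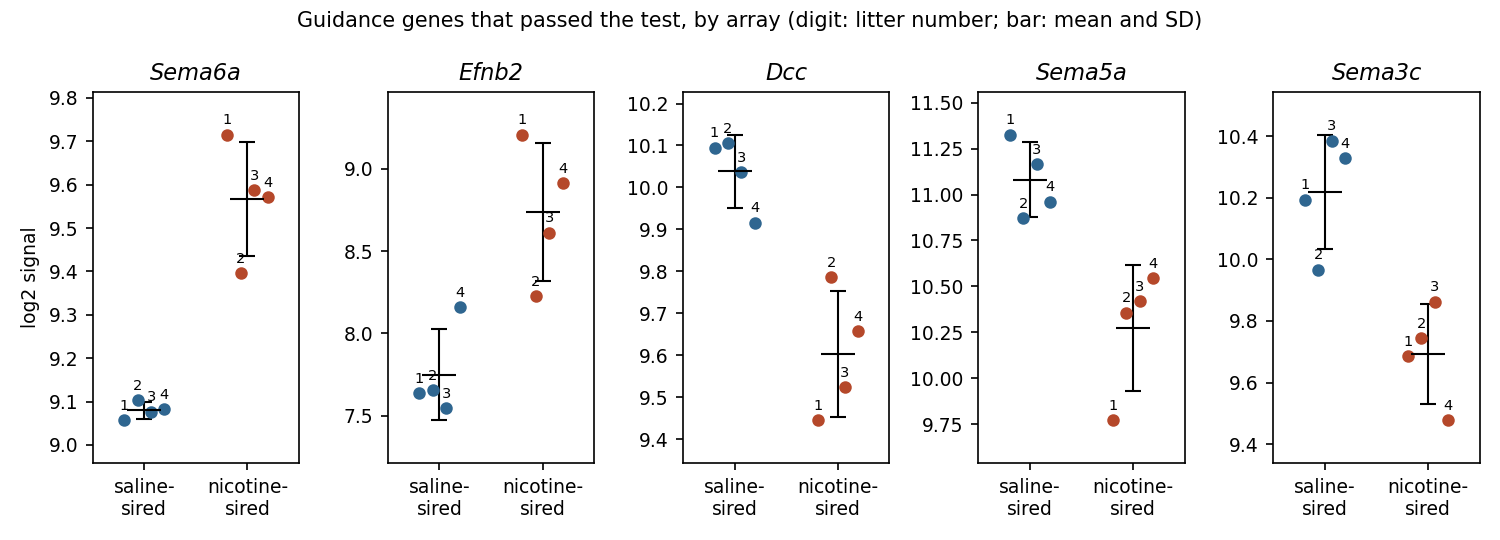
Log2 signal (vertical axis, a separate range in each panel that does not start at 0) of the 5 guidance genes that passed, for the 4 saline-sired (blue) and 4 nicotine-sired (red) arrays, with litter numbers beside the points and bars for the mean and SD. In none of the 5 panels do the groups overlap, and the saline-sired values of Sema6a span only 9.06 to 9.10.

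The calls of these 5 genes depended on single arrays, while their differences kept their sign. Without nicotine-sired 1 there were 3 guidance genes that passed (Sema5a, Sema6a and Unc5d), where 0.528% of all tested rows passed. Without nicotine-sired 2 there were 17 (4.43% of all tested rows), and without nicotine-sired 4 there were 7 (4.86%). Without nicotine-sired 3 there were 0 (0.646% of all tested rows), with 29 of the 61 at an unadjusted p under 0.05 (47.5%, against 19.9%). Efnb2 was not among the 7 found without nicotine-sired 4. With array weights 17 passed (7.92% of all tested rows), and without a filter Sema6a alone did (0.511%). Without saline-sired 1, 2, 3 or 4 the count was 0 each time, and of all tested rows 0.0%, 0.0528%, 0.0% and 0.462% passed. At an unadjusted p under 0.05 these 4 fits had 25, 29, 29 and 33 guidance genes, or 41.0%, 47.5%, 47.5% and 54.1%, against 18.0%, 19.2%, 19.3% and 23.9% of all tested rows. All 5 calls were therefore lost whenever a saline-sired array or nicotine-sired 3 was left out. Over the 8 fits with 1 array left out the difference of Sema6a ran from 0.44 to 0.54 (adjusted p from 0.0226 to 0.0881), that of Efnb2 from 0.83 to 1.16 (0.0232 to 0.133) and that of Dcc from -0.50 to -0.38 (0.0236 to 0.116). That of Sema5a ran from -0.90 to -0.64 (0.0271 to 0.128) and that of Sema3c from -0.61 to -0.45 (0.0419 to 0.124).

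Whether transcript per cell changed in the 5 genes that passed was not tested. The promoters of 4 of the 5 are printed here because these genes passed in the fit with all arrays and no covariate. Each runs from 250 bases before to 50 bases after the start of the gene in RefSeq (rat assembly GRCr8), read 5′ to 3′ along the gene, and capitals mark each CG dinucleotide. Sema6a lies at chr18:42358491-42358790 (minus strand), Efnb2 at chr16:87484965-87485264 (plus strand), Dcc at chr18:68247625-68247924 (minus strand) and Sema3c at chr4:18699578-18699877 (minus strand).
Sema6a: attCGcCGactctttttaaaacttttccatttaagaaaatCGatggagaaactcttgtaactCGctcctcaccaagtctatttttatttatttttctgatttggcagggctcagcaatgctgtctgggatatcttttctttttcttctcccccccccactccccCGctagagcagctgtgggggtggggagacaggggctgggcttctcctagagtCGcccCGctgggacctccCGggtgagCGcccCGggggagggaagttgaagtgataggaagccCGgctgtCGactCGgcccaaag
Efnb2: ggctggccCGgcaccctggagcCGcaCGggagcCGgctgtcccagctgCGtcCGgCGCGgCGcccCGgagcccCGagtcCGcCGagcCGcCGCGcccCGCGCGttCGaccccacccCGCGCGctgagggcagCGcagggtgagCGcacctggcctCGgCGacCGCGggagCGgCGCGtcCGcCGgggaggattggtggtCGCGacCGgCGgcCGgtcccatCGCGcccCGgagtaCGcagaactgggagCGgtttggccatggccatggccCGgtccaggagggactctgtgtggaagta
Dcc: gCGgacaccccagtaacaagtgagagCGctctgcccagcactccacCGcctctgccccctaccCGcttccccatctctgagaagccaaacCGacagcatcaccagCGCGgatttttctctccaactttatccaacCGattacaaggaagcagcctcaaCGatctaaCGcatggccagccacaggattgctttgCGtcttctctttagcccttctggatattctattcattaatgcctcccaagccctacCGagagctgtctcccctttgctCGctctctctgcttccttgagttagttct
Sema3c: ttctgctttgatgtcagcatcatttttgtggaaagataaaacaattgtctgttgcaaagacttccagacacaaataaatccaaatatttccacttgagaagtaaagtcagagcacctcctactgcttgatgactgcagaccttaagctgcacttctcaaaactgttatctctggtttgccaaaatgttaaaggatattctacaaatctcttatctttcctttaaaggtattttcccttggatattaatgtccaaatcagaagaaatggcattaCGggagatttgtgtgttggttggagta
The window of Efnb2 is a dense CpG promoter with 45 CG dinucleotides and a GC content of 77.3%. Those of Sema6a and Dcc hold 13 each, at 53.3% and 53.7% GC, and that of Sema3c holds 1, at 36.3% GC. A promoter was matched for 52 of the 69 guidance genes, with a median of 18 CG dinucleotides, against 7 over 27457 genes. The motif CANNTG, which reads the same on both strands, was in all 4 windows. It was in 61.5% of the 52 guidance promoters and in 71.6% of all promoters of that length. The letters GGGCGG, searched on both strands, were in none of the 4, in 57.7% of the 52 and in 34.9% of all promoters.

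Among Slits and Robos 0 of the 6 genes above the filter passed, where 2.06% of all tested rows did. In 5 of the 6 the mean was lower in nicotine-sired sons, where it was lower in 6921 of all 15161 tested rows. The widest gap of the whole group was that of Slit2, a secreted repellent, which read 5.71, 8.97, 7.73 and 8.94 in nicotine-sired and 9.50, 9.73, 9.83 and 9.33 in saline-sired arrays. The saline-sired arrays were even, whereas the nicotine-sired ones were scattered, with nicotine-sired 1 below the filter value and nicotine-sired 2 and 4 nearest to the controls. Slit2 differed by -1.76 ± 0.62 (adjusted p = 0.133), and by -1.05 ± 0.28 without nicotine-sired 1 (adjusted p = 0.113). That array was also the one with low dentate and CA2 and CA3 scores. The authors' deposited table gives Slit2 an adjusted p of 0.00577. Slit1 differed by -0.26 ± 0.10 and Slit3 by -0.10 ± 0.07. Their receptors Robo1 and Robo2 differed by -0.31 ± 0.10 and -0.21 ± 0.07, with adjusted p-values of 0.114 and 0.138, and Robo3 by 0.14 ± 0.19. Robo4, the endothelial member, was below the filter.

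In the netrin system Dcc was the gene that passed, 1 of 8 above the filter (12.5%, against 2.06% of all tested rows). The Unc5 receptors, through which netrins repel, were split. Unc5c read 8.07, 9.04, 8.54 and 8.88 in nicotine-sired and 9.35, 9.71, 9.42 and 9.20 in saline-sired arrays. Every nicotine-sired value of Unc5c lay below every control value, and the difference was -0.79 ± 0.20 (adjusted p = 0.0673). Unc5d read 7.53, 9.84, 9.85 and 9.76 in nicotine-sired and 10.66, 10.30, 10.32 and 10.29 in saline-sired arrays. Nicotine-sired 1 fell far below its group, while the remaining 3 differed little from each other. Unc5d differed by -1.15 ± 0.46 (adjusted p = 0.174) with all arrays and by -0.57 ± 0.10 (adjusted p = 0.0467) without nicotine-sired 1.

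Unc5b went the other way. It read 8.95, 8.42, 8.61 and 8.90 in nicotine-sired and 7.91, 7.92, 8.41 and 8.07 in saline-sired arrays. The groups met closely at nicotine-sired 2 and saline-sired 3 without overlapping. Unc5b, which is known from endothelial cells as well as neurons, differed by 0.64 ± 0.15 (adjusted p = 0.0587). Unc5a differed by -0.08 ± 0.12.

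Of the ligands, Ntn1 differed by 0.10 ± 0.17. Ntn4, a netrin related to laminins, differed by 0.37 ± 0.15 (adjusted p = 0.183), with values of 7.57 to 8.07 against 6.996 to 7.54, and its second row by 0.28 ± 0.14. Both rows of Ntn4 kept the groups apart. Unc50, whose worm counterpart is needed for nicotinic receptors to reach the cell surface, differed by 0.02 ± 0.06.

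Semaphorins held 3 of the 5 calls, out of 18 above the filter (16.7%, against 2.06% of all tested rows). In 13 of the 18 the mean was higher in nicotine-sired sons, where it was higher in 8240 of all 15161 tested rows. Besides Sema6a and the lower Sema5a and Sema3c, the groups did not overlap for Sema3d and Sema4b. Sema3d, a secreted member, read 7.38, 7.55, 7.94 and 7.55 in nicotine-sired and 6.67, 7.14, 7.09 and 7.32 in saline-sired arrays. The gap between the groups was narrow for Sema3d, at nicotine-sired 1 and saline-sired 4, and all 8 values were below the brightest antigenomic control, as they were for Sema3b. It differed by 0.55 ± 0.16 (adjusted p = 0.0883). Sema4b differed by 0.27 ± 0.10 (adjusted p = 0.137). Sema3b, another secreted member, differed by 0.72 ± 0.20 (adjusted p = 0.0826), with 6.81 on nicotine-sired 2 inside the saline-sired range of 6.36 to 6.94.

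The 5 class 3 semaphorins above the filter did not move as a class. Sema3b and Sema3d had higher means, Sema3c fell, Sema3e differed by 0.26 ± 0.14 and Sema3f by -0.13 ± 0.18. Sema3a, the prototype repellent of the class, was below the filter with a mean of 6.04. It read 6.40, 6.01, 6.56 and 6.70 against 5.40, 5.69, 5.57 and 5.99, so its groups did not overlap either. In the fit without a filter Sema3a differed by 0.75 ± 0.16 (limma adjusted p = 0.0710). Sema4d, which binds plexin-B1 and is made by oligodendrocytes, differed by 0.28 ± 0.12 (adjusted p = 0.189), and its second row by 0.18 ± 0.15. A list of 8 oligodendrocyte markers was higher in 8 of 8, with scores from -0.10 to 0.38 in nicotine-sired and from -0.40 to 0.04 in saline-sired arrays, and its part in the difference of Sema4d was not tested. Sema7a, anchored to the membrane by a lipid, differed by 0.25 ± 0.09, and its receptor Plxnc1 by -0.01 ± 0.07.

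**Figure D2:**
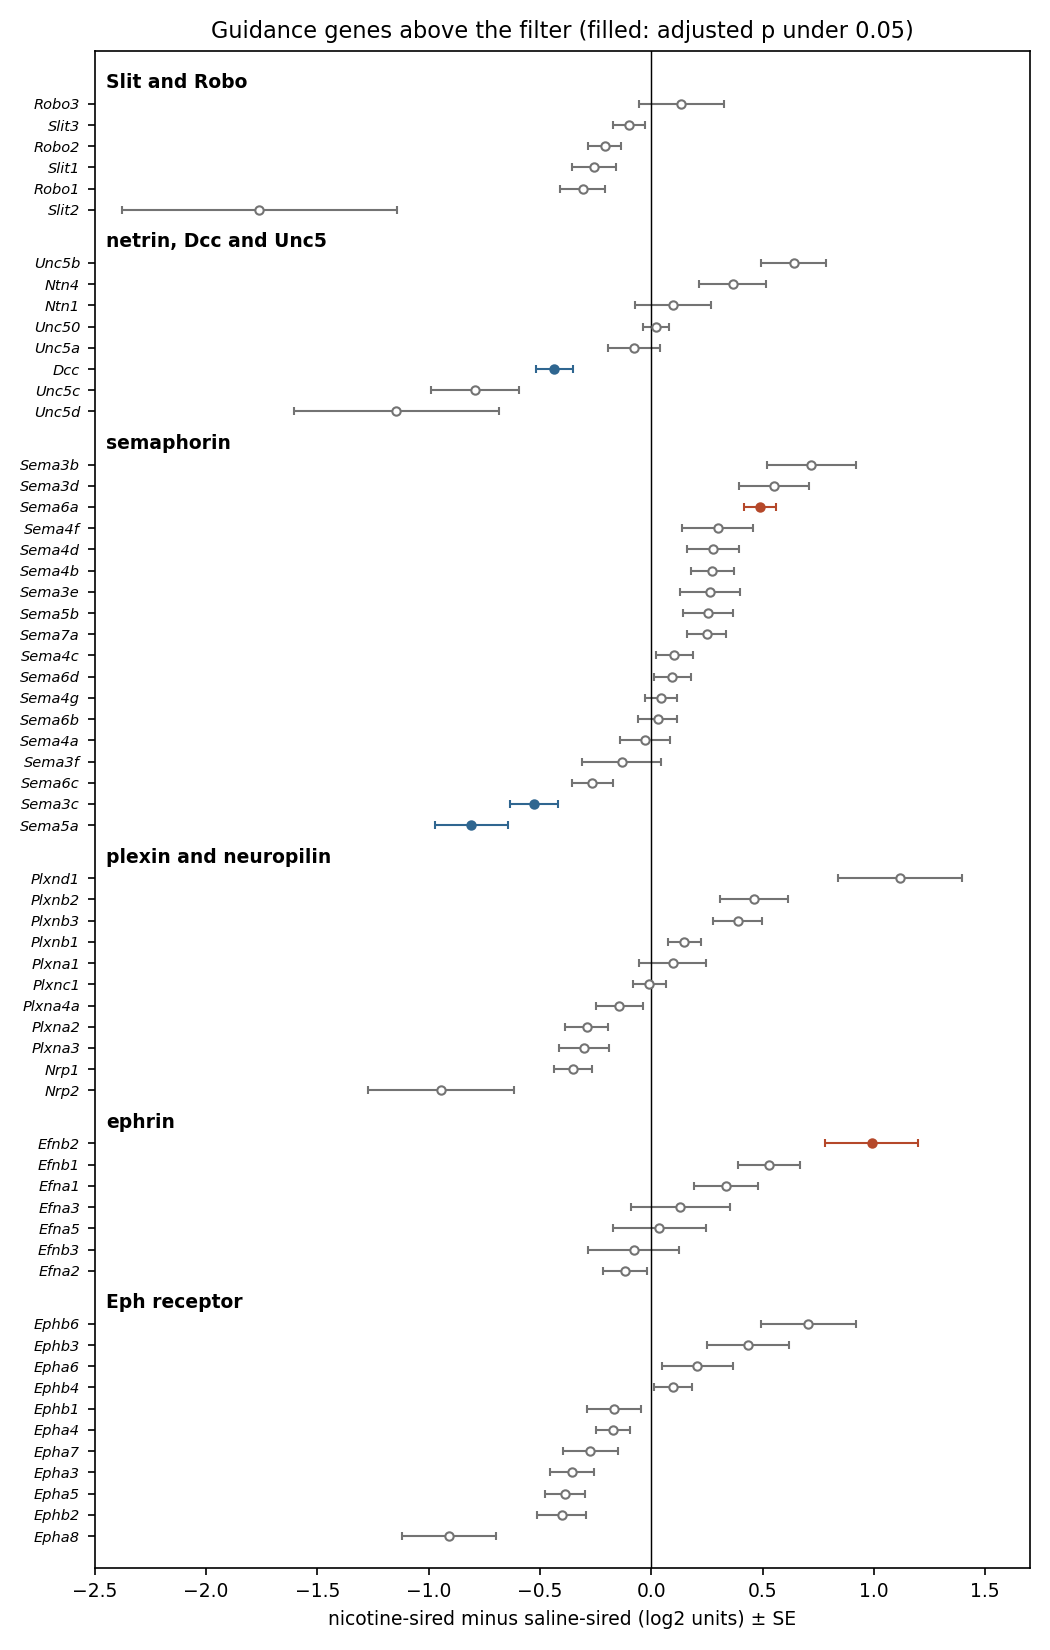
Difference in mean log2 signal, nicotine-sired minus saline-sired (horizontal axis, log2 units, bars for the SE of limma), for each of the 61 guidance genes above the filter, grouped by family. Filled points mark the 5 genes that passed, and the widest differences in either direction, Slit2 at -1.76 and Plxnd1 at 1.12, are open points with wide bars.

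No plexin or neuropilin passed, 0 of 11 above the filter, where 2.06% of all tested rows passed. Plxnd1, the receptor of Sema3e that is prominent in vessels, read 8.57, 7.25, 7.78 and 7.57 in nicotine-sired and 6.44, 6.75, 6.33 and 7.19 in saline-sired arrays. Nicotine-sired 1 was the highest and the only one above the brightest antigenomic control, and nicotine-sired 2 stood just above saline-sired 4. Plxnd1 differed by 1.12 ± 0.28 (adjusted p = 0.0662). The neuropilins, co-receptors of class 3 semaphorins, lay lower in both cases. Nrp1 read 10.08, 10.35, 10.18 and 9.96 against 10.40, 10.58, 10.55 and 10.45. All of its nicotine-sired values were below all controls, with a difference of -0.35 ± 0.09 (adjusted p = 0.0650).

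Nrp2 read 7.95, 9.81, 9.08 and 9.51 in nicotine-sired and 9.97, 10.12, 10.06 and 9.99 in saline-sired arrays. As with Slit2 and Unc5d, the low point was nicotine-sired 1. Nrp2 differed by -0.95 ± 0.33 (adjusted p = 0.1297), and by -0.57 ± 0.15 (adjusted p = 0.105) without that array.

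Class A plexins, the usual partners of neuropilins, were Plxna1 (0.10 ± 0.15), Plxna2 (-0.29 ± 0.10), Plxna3 (-0.30 ± 0.11) and Plxna4a (-0.14 ± 0.10). Only Plxna2 among these 4 had groups that did not overlap. All 3 class B plexins had higher means. Plxnb1 differed by 0.15 ± 0.07, Plxnb3 by 0.39 ± 0.11 (adjusted p = 0.0858) and Plxnb2 by 0.46 ± 0.15 (adjusted p = 0.116). Plxnb2 was highest on nicotine-sired 4, at 9.36, against 8.58 to 8.90 on the others of its group, and without that array it differed by 0.30.

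Among ephrins 1 of 7 passed, Efnb2 (14.3%, against 2.06% of all tested rows). Efnb1, which encodes another transmembrane ligand, read 8.56, 7.90, 8.08 and 8.13 in nicotine-sired and 7.53, 7.73, 7.47 and 7.81 in saline-sired arrays. Its pattern over the arrays resembled that of Efnb2, with nicotine-sired 1 highest and nicotine-sired 2 nearest to the controls. Efnb1 differed by 0.53 ± 0.14 (adjusted p = 0.0760). Efnb3 differed by -0.08 ± 0.20. Differences of the ephrin-A genes ran from -0.12 for Efna2 to 0.34 for Efna1 (adjusted p = 0.194), and the groups overlapped in 4 of 4.

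Of 11 Eph receptors above the filter 0 passed, where 2.06% of all tested rows did. In 4 of the 11 (36.4%) the groups did not overlap, all lower in nicotine-sired sons. Of all tested rows 14.3% did not overlap, and 6.15% lay lower. EphA receptors bind ephrin-A ligands, and 5 of 6 had lower means. Epha8 read 7.35, 8.22, 8.02 and 8.13 in nicotine-sired and 9.25, 8.59, 8.95 and 8.56 in saline-sired arrays. The extremes were nicotine-sired 1 and saline-sired 1. Epha8 differed by -0.91 ± 0.21 (adjusted p = 0.0589). Epha5 read 10.40, 10.77, 10.44 and 10.44 against 10.82, 10.93, 11.03 and 10.82. The groups of Epha5 nearly touched at nicotine-sired 2. It differed by -0.39 ± 0.09 (adjusted p = 0.0596), and Epha3 by -0.35 ± 0.10 (adjusted p = 0.0837). Epha4, which binds ephrins of both classes, and Epha7 differed by -0.17 ± 0.08 and -0.27 ± 0.12. Epha6 differed by 0.21 ± 0.16.

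The EphB receptors, the partners of the ephrin-B ligands, were mixed, with 3 of 5 higher and 2 lower in the mean. Ephb2 read 8.05, 8.21, 8.07 and 7.85 in nicotine-sired and 8.28, 8.67, 8.53 and 8.31 in saline-sired arrays. Every nicotine-sired value was below every control, by -0.40 ± 0.11 in the mean (adjusted p = 0.0812). Ephb6, a member without kinase activity, read 9.76, 9.05, 9.17 and 8.59 against 8.19, 8.63, 8.39 and 8.55. Nicotine-sired 4 lay inside the control range, and the difference was 0.71 ± 0.21 (adjusted p = 0.0998). Without nicotine-sired 4 the difference of Ephb6 was 0.89 and passed (adjusted p = 0.0307). Ephb3 differed by 0.43 ± 0.18, Ephb1 by -0.17 ± 0.12 and Ephb4 by 0.10 ± 0.09.

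**Figure D3:**
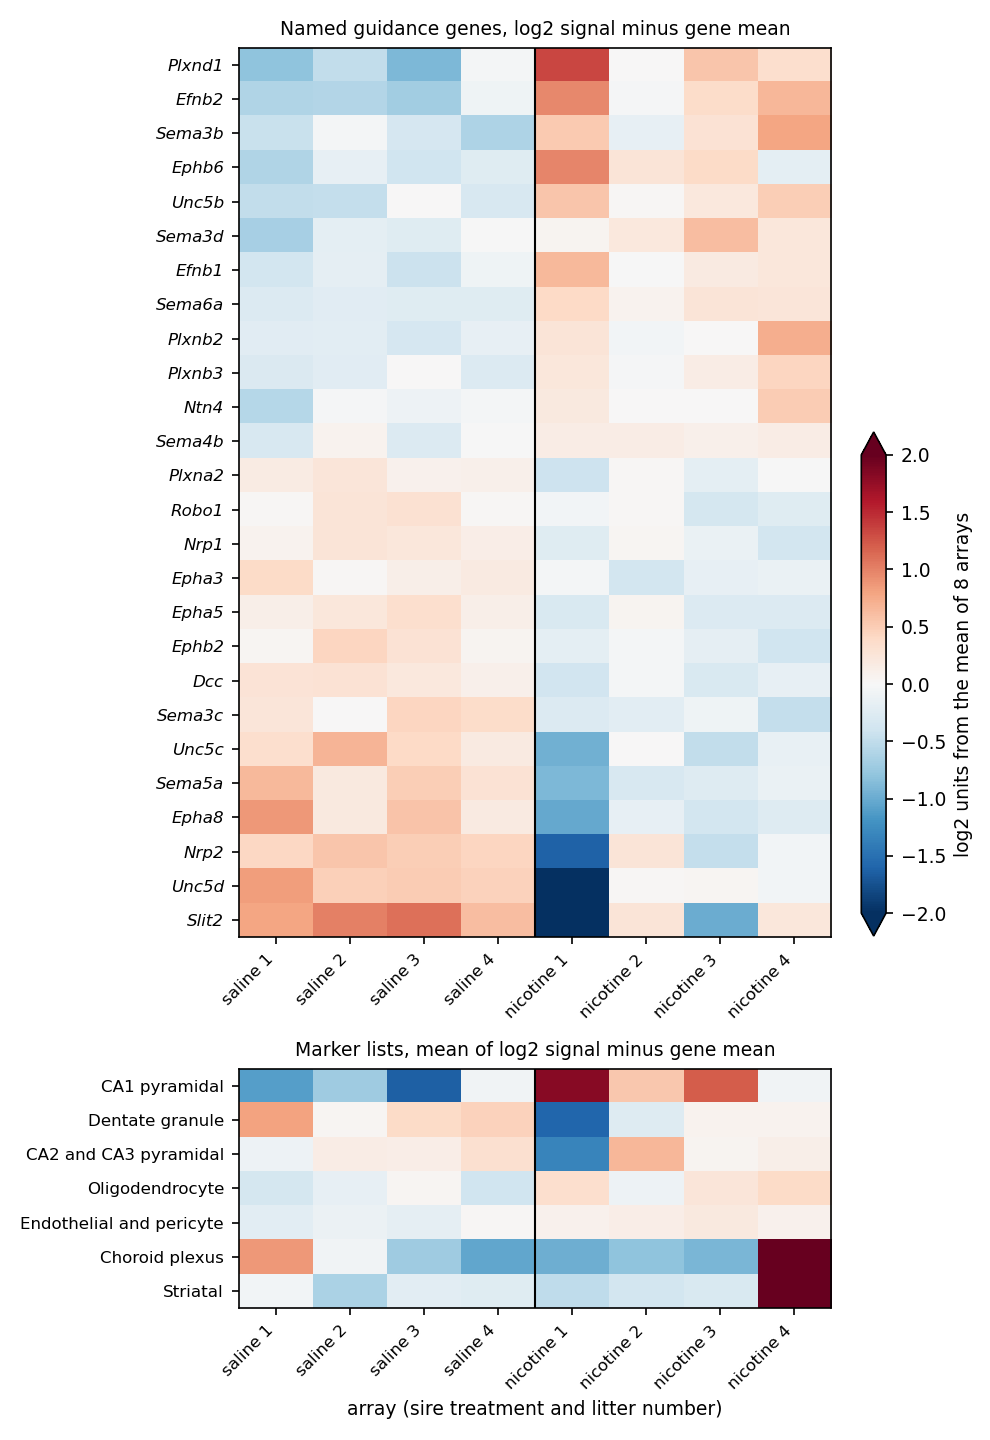
Upper panel, log2 signal minus the gene's mean over 8 arrays for the 26 guidance genes chosen by call, by smallest p or by groups that did not overlap (rows), on each array (columns); lower panel, mean scores of 7 marker lists on the same arrays and colour scale, which saturates at 2 units either way. Nicotine-sired 1 is the darkest column in Slit2, Unc5d and Nrp2 and in the CA1, dentate, and CA2 and CA3 scores, and nicotine-sired 4 in the choroid plexus and striatal scores.

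The 8 guidance genes below the filter were Epha1, Epha2, Epha10, Robo4, Efna4, Unc5cl, Sema3a and Sema3g. Apart from Sema3a, Unc5cl was the one whose groups did not overlap, by a margin of under 0.01 between 5.549 and 5.550. The differences of the 7 besides Sema3a ran from -0.27 for Unc5cl to 0.10 for Robo4.

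The spread over arrays was uneven. Nicotine-sired 1 was the highest or the lowest of the 8 arrays for 31 of the 61 guidance genes (50.8%, against 38.6% of all tested rows), and nicotine-sired 4 for 25 (41.0%, against 36.0%). Saline-sired 4 was at an end for 2 (3.28%, against 17.7%). Without nicotine-sired 1 the differences of Slit2, Unc5d and Nrp2 shrank by over 1.5 times, and those of the other 23 of the 26 genes in the heat map did not. Without nicotine-sired 4 that of Plxnb2 alone did.

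With the CA1 score as a covariate in the fit, 0 guidance genes passed, where 0.0% of all tested rows passed. At an unadjusted p under 0.05 there were 12 (19.7%, against 9.45% of all tested rows). In that fit 9 of the 26 differences were as large or larger, 3 were smaller by at most 1.5 times, 11 were smaller by more and 3 took the other sign. Sema3c was among the first, at -0.61 ± 0.19, and so were Nrp1 (-0.36 ± 0.15), Ephb2 (-0.42 ± 0.19) and Unc5b (0.71 ± 0.26). Sema6a was at 0.38 ± 0.12. Efnb2, Dcc and Sema5a shrank to 0.51 ± 0.31, -0.23 ± 0.12 and -0.30 ± 0.19. Slit2, Unc5d and Ephb6 took the other sign, at 0.26 ± 0.68, 0.02 ± 0.64 and -0.02 ± 0.22. The CA1 scores were at least -0.0637 in nicotine-sired and at most -0.0643 in saline-sired arrays. Score and sire treatment therefore cannot be told apart in the CA1 fit. With the dentate score as a covariate 9 of the 26 shrank by over 1.5 times, among them Sema5a (-0.43 ± 0.09), Slit2 (-0.57 ± 0.53) and Unc5d (-0.06 ± 0.21), while Sema6a was at 0.41 ± 0.09. With the oligodendrocyte score 8 of the 26 did, among them Unc5b (0.23 ± 0.16), Sema3b (0.16 ± 0.21) and Plxnb3 (0.08 ± 0.12). At an unadjusted p under 0.05 in limma the dentate fit had 24 guidance genes (39.3%, against 13.8% of all tested rows). The oligodendrocyte fit had 8 (13.1%, against 6.72%). The groups overlapped only in part in these scores, and why the differences shrank was not tested. With the endothelial and pericyte score as a covariate Plxnd1 differed by 0.59 ± 0.55 and Unc5b by 0.83 ± 0.30. In that fit 11 of the 26 differences were as large or larger, and 8 were smaller by at most 1.5 times. Another 6 were smaller by more, and Sema3d took the other sign, at -0.08 ± 0.22. The groups did not overlap in that score (at least 0.08 against at most 0.03). Score and sire treatment cannot be told apart there either.

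**Figure D4:**
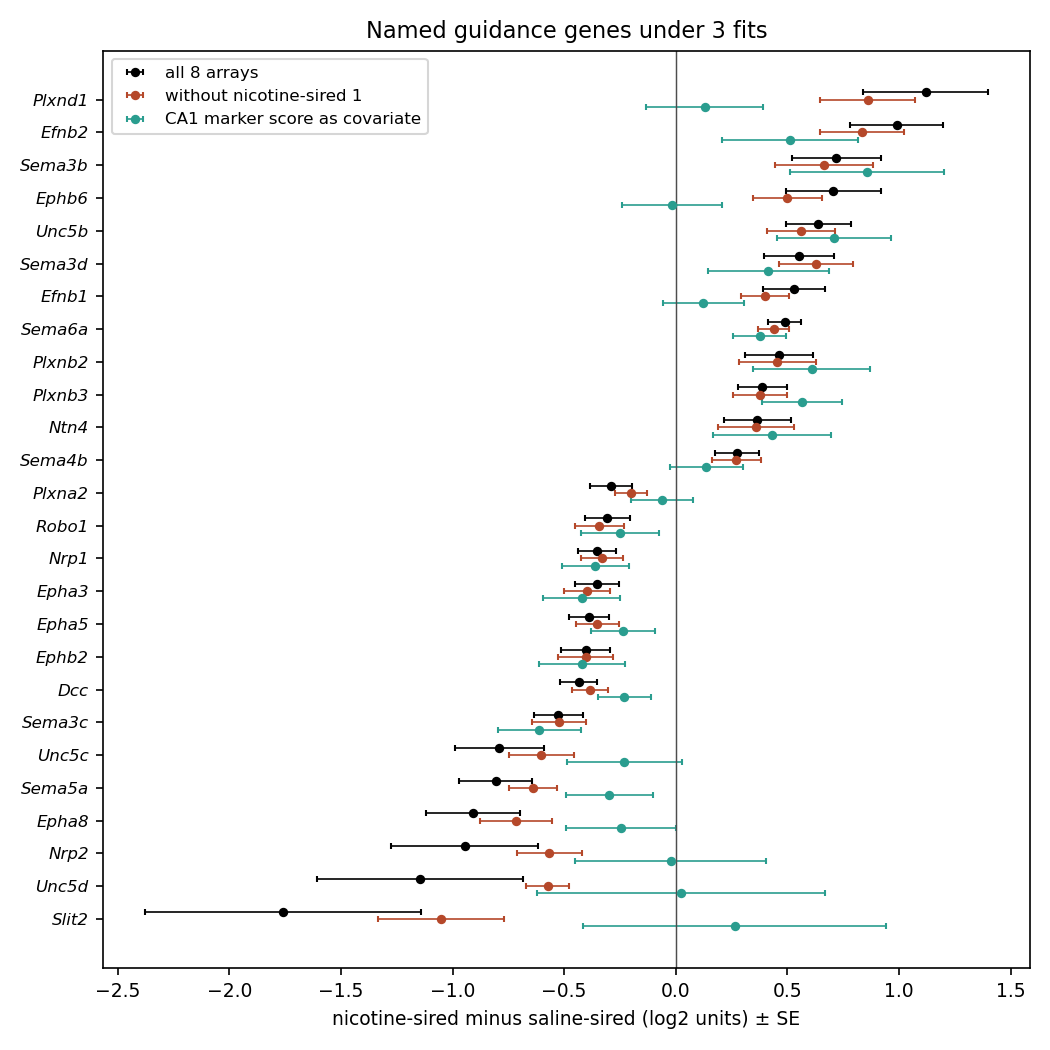
Difference, nicotine-sired minus saline-sired (horizontal axis, log2 units, bars for the SE), of the same 26 genes with all 8 arrays (black), without nicotine-sired 1 (red) and with the CA1 marker score as a covariate (green). Sema3c and Ephb2 stay near their value in all 3 fits, whereas Slit2 goes from -1.76 through -1.05 to 0.26.

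The authors' deposited table calls more of these genes. By its adjusted p of 0.05, 16 of the 61 passed (26.2%, against 8.63% of all tested rows), 8 higher (4.83%) and 8 lower (3.81%), and these included 3 of the 5 found with limma: Sema6a, Efnb2 and Dcc. No source used here names the model behind those p-values.

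Binding partners, co-receptors and intracellular effectors of guidance signalling were listed as 77 further genes, all measured and 76 above the filter. Of these 1 passed, or 1.32%, against the 2.06% of all tested rows, and 8 had groups that did not overlap (10.5%, against 14.3%). At an unadjusted p under 0.05 there were 26 (34.2%, against 24.0%), and at one under 0.01 there were 9 (11.8%, against 9.58%). The gene that passed was Rac3, a small GTPase of the cytoskeleton in neurons, which read 8.15, 8.29, 8.07 and 8.12 in nicotine-sired and 8.59, 8.65, 8.60 and 8.68 in saline-sired arrays. The groups of Rac3 were clearly apart, and it fell by 0.48 ± 0.07 (adjusted p = 0.0251 in limma). The count was 0 without any 1 saline-sired array, where at most 0.462% of all tested rows passed. It was 5, or 6.58%, without nicotine-sired 2 and without nicotine-sired 4, where 4.43% and 4.86% of all tested rows passed.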

How the data were processed

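Total RNA from hippocampal punches was labelled with biotin and hybridised to Affymetrix arrays, per the labels' protocols. MAS5 is listed, without a version, per the submitters' processing notes; how the signals were summarised and normalized, and the array model, is not stated in any source used here. The authors deposited log2 signals, 1 per row and array, in a value table and an analysis table whose values were the same (largest difference 0). Per the file headers, the authors' p-value (raw and adjusted), the nicotine to saline ratio on a linear scale and a fold score with a sign are in the analysis table too.

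Control-class rows (6362) were left out of 36685. The remaining 30323 were kept when their mean over 8 arrays was above their median, since no detection calls were used here. Groups were compared with limma 3.58.1 in R 4.3.3 (lmFit, eBayes with a trend, two-sided), adjusted by Benjamini-Hochberg over all kept rows; the fit was tested on simulated data. No pseudocount was added. Scores are means of log2 values minus each gene's mean. Errors are limma's SE. The number of arrays limits the precision.

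Named genes are those that passed, the 10 with the smallest p in each direction, those whose groups did not overlap, those at the ends of the signal range, Slit2, and effectors that passed. The members and lists were chosen with earlier results of these data known. Alternatives covered filters, normalization, a pseudocount, array weights, a fit with no eBayes trend, litter as a block, a CA1 covariate, row choice, the authors' p and each array left out; 3 further covariates were added after seeing the data.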

Additional observations from a re-analysis of the deposited data

Results flagged for a closer look

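In 8 of 138 groups of 4 arrays (69 genes in both groups) 1 array stood far from the other 3, its gap to the nearest exceeding Dixon's critical share of the range. Chance flags about 1 in 20, or 6.9. Unc5d stood out in both groups, at 7.53 on nicotine-sired 1 (others 9.76 to 9.85) and at 10.66 on saline-sired 1 (others 10.29 to 10.32). Epha5 read 10.77 on nicotine-sired 2 (others 10.40 to 10.44), which brought it close to the saline-sired values. Sema3f read 6.74 on nicotine-sired 4, the array with the choroid plexus and striatal transcripts, against 6.07 to 6.17. Ntn4 read 6.996 on saline-sired 1 (others 7.45 to 7.54) and Efna5 read 6.77 on saline-sired 4 (others 6.32 to 6.39). Sema4b read 8.12 (others 8.17 to 8.18) and Unc50 read 9.12 (others 9.16 to 9.17) on nicotine-sired 3.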

How the results depend on the processing

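The 5 guidance genes that passed were 5 with a stricter filter, with a pseudocount of 64 and with the mean of a gene's rows. Of all tested rows 2.31%, 2.01% and 2.1% passed in these fits. The count was 4 with quantile normalization and with median centring, where 2.0% and 1.91% of all tested rows passed. It was 1 with no filter (Sema6a), where 0.511% of all tested rows passed, and 2 without the trend (Sema6a and Dcc), where 1.54% did. With array weights it was 17 (7.92% of all tested rows), and by the authors' deposited adjusted p 16 (8.63%). With the CA1, dentate, oligodendrocyte or endothelial score as a covariate it was 0, and 0.0% of all tested rows passed in each. With the litter number as a replicate block it was 0, where 0.0% of all tested rows passed. In that fit 33 were at an unadjusted p under 0.05 (54.1%, against 21.9% of all tested rows). The deviations of same-numbered arrays from their group means correlated at -0.14, 0.18, -0.05 and -0.17. With so few arrays these values cannot settle whether the numbers pair the arrays. Leaving out 1 array gave counts from 0 to 17, and effector counts from 0 to 5. The effector count of 1 became 0 with the block and with each covariate, where 0.0% of all tested rows passed. With array weights it was 10 (13.2%, against 7.92% of all tested rows). By the authors' p it was 8, where 8.63% of all tested rows passed. The median difference of guidance genes, 0.03, moved to -0.078 with the stricter filter, -0.061 with the CA1 covariate and -0.080 with the endothelial covariate, and it ran from 0.00013 to 0.045 with 1 array left out. Of 568 values of the 26 named genes under alternatives, 4 took the other sign: Slit2 (0.26), Unc5d (0.025) and Ephb6 (-0.016) with the CA1 covariate, and Sema3d (-0.080) with the endothelial one. Why these values moved was not tested. Sizes are least certain for the 8 genes below the filter and for the 22 above it that lay under the brightest antigenomic control in a whole group, Efnb2 among them.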
